A study of Mus musculus with 18 samples.

Results

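Yy1, Hmgb2 and Ncl were 3 of the 64 genes on a focused array of Polycomb and Trithorax group regulators and their partners. They were picked by symbol, because the DNA-binding protein Yy1, the chromatin protein Hmgb2 and nucleolin, the product of Ncl, are known to form a repressor complex. Each gene had 2 spots on each array, so that 108 spot values of 2106 over all genes were theirs. The arrays were hybridised with RNA of mesenchymal stem cells that had been grown from inguinal fat. The donors were FVB mice of 1, 3, 6, 12 or 24 months, 1 mouse for a sample, and gave 4, 3, 3, 3 and 2 samples at these ages. The cells were taken within the 5th passage, no gene was altered and no agent was given. Of the 15 samples, 3 were hybridised to 2 arrays, which gave 18 arrays in all.

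Yy1 is a zinc finger protein that binds DNA by sequence, recruits Polycomb complexes at some genes and activates others. Hmgb2 is a high mobility group protein that binds the minor groove of DNA with little sequence preference and bends it, and it is known from other cell systems as abundant in dividing cells. Nucleolin is a nucleolar RNA-binding protein that takes part in ribosomal RNA synthesis and processing. The complex of the 3 proteins was described in human cells, where it binds a subtelomeric repeat array and keeps neighbouring genes low. An array measures the transcripts only, not the proteins or their complex.

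In GRCm38.p6, Yy1 (NM_009537) lies at chr12:108792945-108820148, Hmgb2 (NM_008252) at chr8:57511843-57515999 and Ncl (NM_010880) at chr1:86344719-86359455. The probe sequences were not used here. The 250 bases before the annotated start of Hmgb2 and of Ncl are printed here from RefSeq, 5′ to 3′ on the strand of the gene. Hmgb2 was the member whose signal ran from high to undetected between samples, while Ncl, like Yy1, was detected throughout. The window of Yy1, which begins inside the annotated gene, is not printed. The printed bases are reference context and were not measured. Capitals mark 3 motifs on either strand: CCAAT, the CCAAT box; TTTGAA, the cell cycle genes homology region (CHR) element of many genes of the cell cycle; and CCATNTT, the core that Yy1 itself recognises. The Hmgb2 window is chr8:57511593-57511842 (+) and the Ncl window chr1:86359456-86359705 (-).
Hmgb2: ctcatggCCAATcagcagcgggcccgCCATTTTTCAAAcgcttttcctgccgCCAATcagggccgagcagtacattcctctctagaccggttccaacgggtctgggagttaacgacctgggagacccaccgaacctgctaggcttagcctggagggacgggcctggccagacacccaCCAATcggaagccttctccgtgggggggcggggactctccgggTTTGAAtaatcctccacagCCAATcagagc
Ncl: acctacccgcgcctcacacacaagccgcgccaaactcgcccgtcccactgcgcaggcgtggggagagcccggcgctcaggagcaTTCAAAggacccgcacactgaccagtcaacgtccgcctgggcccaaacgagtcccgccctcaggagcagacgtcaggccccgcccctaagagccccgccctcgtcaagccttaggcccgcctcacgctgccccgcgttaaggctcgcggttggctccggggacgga

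The Hmgb2 window held 4 CCAAT boxes, all on the strand of the gene, the nearest 11 to 7 bases before the start. It also held 2 CHR matches, at 30 to 25 bases and, on the other strand, at 218 to 213 bases, and 1 match to the Yy1 core at 224 to 218 bases, which shares 1 base with the distal CHR match. The Ncl window held 1 CHR match and none of the other motifs. The same window of Yy1, which begins 102 bases inside the annotated gene, held no match to any of the 3, and its GC content was 81.2%, against 60.4% for Hmgb2 and 69.6% for Ncl. Of 32851 windows of this length over all genes, 33.8% held a CCAAT box and 0.84% held 4 or more, 16% held a CHR match and 1.81% 2 or more, and 12.4% held a Yy1 core. These are matches of letters and say nothing of whether a factor binds there.

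The signal of a spot is given below as the mean signal of its pixels, in percent of the highest value a pixel can take (65535). Tests used log2 levels after background correction and quantile normalisation, which gives every array the same distribution of values. The median gene spot of an array lay between 8286 and 33357 on the pixel scale, and 23 to 39 genes were called present on an array. The order and names of the arrays divide them into 2 sets, of 12 and 6 arrays. The first set held all samples of 3 and 6 months, the second held those of 24 months, and samples of 1 and 12 months were spread over both. No marker of mesenchymal stem cells from a list of 9, and none of adipocytes from a list of 4, was on the array, so the label of the cells could not be checked. Blood cell genes (Itgb2, Nckap1l and Ctsg) and the endothelial gene Darc were detected in 0 of 15 samples, and the epithelial gene Krt17 in 1.

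Hmgb2 was the member that differed most between samples. At 1 month its signal was 12.8% of the pixel ceiling in sample 1, 31.7% in sample 2, 33.3% in sample 5 and 74.3% in sample 8. At 3 months it was 56.1% in sample 2, 12.1% in sample 5 and 19.4% in sample 8, and at 6 months 28.5% in sample 6, 7.6% in sample 7 and 20.8% in sample 8. The high samples were thus all of mice of 1 to 6 months, and each of these ages also held a low one. At 12 months it was 11.2% in sample 2, 11.1% in sample 3 and 9.1% in sample 7, and at 24 months 9.2% in sample 1 and 11.8% in sample 2. With the arrays of a sample averaged, all 5 samples of 12 and 24 months lay below all 4 samples of 1 month on this scale. The scale is not normalised for the brightness of the array. Of the 38 genes tested, 2.63%, Hmgb2 alone, showed this, and Hmgb2 passed the filter only through samples of 1 to 6 months. Single arrays overlapped. The second array of 1-month sample 1, at 11.6%, lay below 24-month sample 2. The second array of 12-month sample 2, at 13.8%, lay above the mean of 1-month sample 1. After normalisation the groups overlapped: 2 of 3 samples at 12 months and 1 of 2 at 24 months lay below every 1-month sample.

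In such bulk RNA, fewer cells that hold a transcript and less of it per cell cannot be told apart. The authors' present calls followed the same line. Hmgb2 was called present in 3 of 4 samples at 1 month and in 1 of 3 at 3 months. At 6 months 2 of 3 samples were called present, at 12 months 0 of 3, and 0 of 2 were so at 24 months. Over the 64 genes, 8 were detected in some sample of 1 to 6 months and in none of 12 or 24 months, and 5 the other way round, with 5 older samples against 10 younger ones. Hmgb2 was detected in 6 of those 10 younger samples, and the other 7 of the 8 genes in 1 sample each. Hmgb2 therefore entered the tests through its younger samples. Within the first set 5 of 12 arrays and within the second 2 of 6 had a present Hmgb2 spot.

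**Figure D1:**
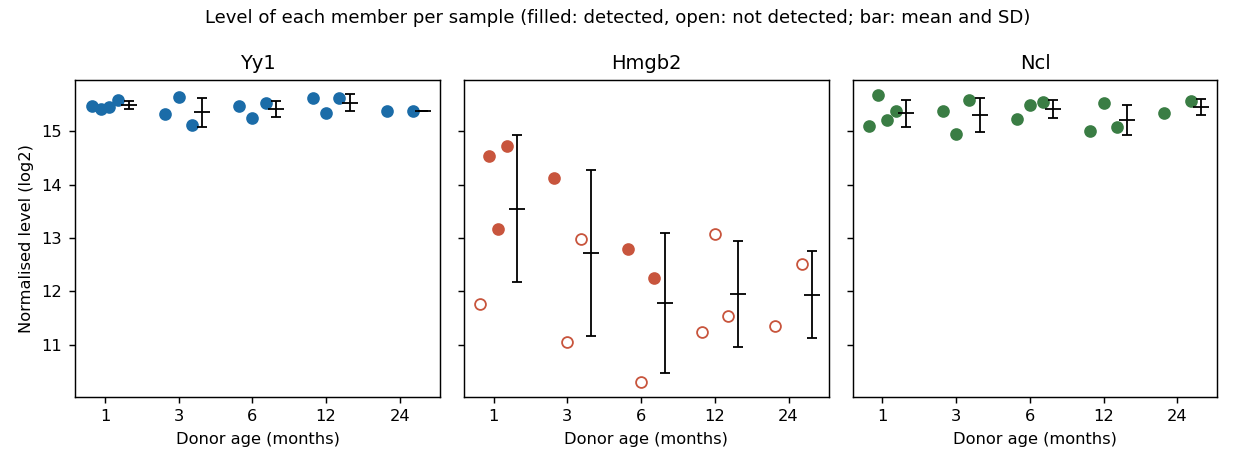
Normalised log2 level (y axis) of Yy1, Hmgb2 and Ncl in each sample by donor age in months (x axis). Filled points are samples in which the gene was detected, open points those in which it was not, and bars give the mean and SD of an age. Hmgb2 ranged from 10.30 to 14.73, with all 5 points at 12 and 24 months open, while every point of Yy1 and Ncl was filled and lay above 14.9.

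On the normalised log2 scale, Hmgb2 averaged 13.55 ± 1.38 at 1 month (SD, n = 4), 12.72 ± 1.56 at 3 months, 11.78 ± 1.31 at 6 months, 11.95 ± 0.99 at 12 months (SD, n = 3 each) and 11.94 ± 0.82 at 24 months (SD, n = 2). From the highest, the order of ages was 1, 3, 12, 24 and 6 months, and no neighbours in that order differed by more than their SD. The difference from 1 month was -0.83 ± 0.96 (SE) at 3 months, -1.77 ± 0.96 at 6 months, -1.60 ± 0.96 at 12 months and -1.61 ± 1.08 at 24 months, on the log2 scale. None passed the test (limma, adjusted p = 0.729, 0.316, 0.995 and 0.451 over 38 genes). The share of genes called was 0% at 3, 12 and 24 months and 2.63% at 6 months. The 95% interval at 24 months ran from -4.01 to 0.79, so that neither a large fall nor a small rise could be told from no difference at this number of samples.

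The slope of Hmgb2 over log2 age was -0.41 ± 0.19 per doubling of age (SE, n = 15 samples). It did not pass the test (limma, unadjusted p = 0.048, adjusted p = 0.415), its older end rested on 5 samples in which Hmgb2 was not detected, and 0% of genes were called in this comparison. The F-test over the 5 ages gave an adjusted p of 0.560 for Hmgb2 (limma), with 0% of genes called. The intervals of Hmgb2 against 1 month were the widest of the 38 genes in each of the 4 comparisons. Single samples moved the differences from 1 month. Without 3-month sample 5 the difference at 3 months was 0.003, without 6-month sample 7 that at 6 months was -1.03, and without 24-month sample 1 that at 24 months was -1.03. With a term for the set in the fit the differences were -0.07 at 3 months, -1.01 at 6 months, -1.34 at 12 months and -2.18 at 24 months (limma, adjusted p from 0.532 to 0.993). Leaving out 1-month sample 8 brought the slope to -0.31, and leaving out 1-month sample 1 to -0.52. The slope was -0.44 within the first set of arrays, -0.42 within the second and -0.44 with the set as a term in the fit, with adjusted p of 0.789, 0.622 and 0.283 (limma).

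**Figure D2:**
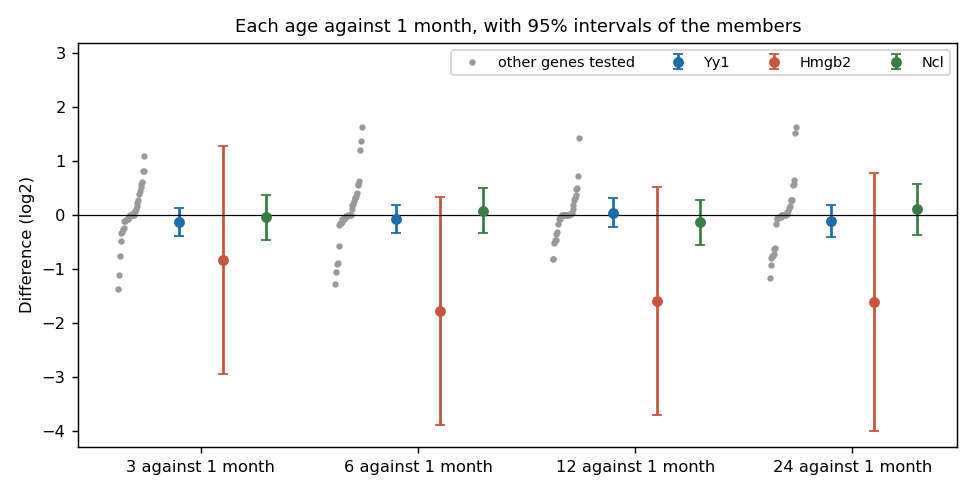
Difference from 1 month (y axis, log2) at 3, 6, 12 and 24 months (x axis). Coloured points with bars are Yy1, Hmgb2 and Ncl with 95% intervals, and grey points are the other genes tested. The bars of Hmgb2 are the longest at every age, its values at 12 and 24 months come from samples in which it was not detected, and all 12 intervals of the members included 0.

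The 1-month samples bear on how firm the level of a single sample is. Sample 8 had Hmgb2 at 86.2% of the ceiling on its second array and 62.3% on its first, and sample 1 at 11.6% and 14%. The high sample was high and the low sample low on both, although the 2 arrays of each lay in different sets. In 12-month sample 2 the second array gave 13.8% and the first 8.6%, both in the first set. On the normalised scale the second array was higher by 1.498 in 1-month sample 8, by 0.57 in 1-month sample 1 and by 0.91 in 12-month sample 2.

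The SD of Hmgb2 within an age was 1.29, the largest of the 38 genes, whose median was 0.38. Its SD between 2 arrays of one sample was 0.75. The spread between samples of one age was thus 1.71 times that between arrays, against a median of 0.92 times over the genes tested. The SD between arrays rests on 3 samples, and through 1-month samples 1 and 8 it takes in the difference between sets. The first Hmgb2 spot of 24-month sample 2 covered 25 pixels, under the 104 to 116 set for the spots of an array, which leaves the mean pixel signal less precise. Without spots under 95 pixels the difference at 24 months was -1.45 ± 1.10 and the slope -0.38, and where intensities were not divided by area the difference was -4.28 ± 1.299 (limma, adjusted p = 0.166).

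Where a gene is called absent on every array of an age, its level there is only a bound. The measured means of Hmgb2 were 11.94 at 24 months and 11.95 at 12 months, against 13.55 at 1 month. With each array of the older ages held at its lowest present spot, the means were 13.47 at 24 months and 13.44 at 12 months. Hmgb2 was itself called absent in 1 of the 4 samples behind the 1-month mean, so no least fold is given.

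Yy1 was called present at both spots on all 18 arrays. Its signal at 1 month was 78.1% of the ceiling in sample 1, 67.9% in sample 2, 85.2% in sample 5 and 89.7% in sample 8. At 3 months it was 84.5% in sample 2, 86.2% in sample 5 and 69.2% in sample 8, and at 6 months 85.5% in sample 6, 48.2% in sample 7 and 81.8% in sample 8. The samples at 6 months thus held the lowest Yy1 signal of the study beside others near the top of the scale. At 12 months it was 88.3% in sample 2, 50.4% in sample 3 and 88.4% in sample 7, and at 24 months 65.8% in sample 1 and 66.2% in sample 2.

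After normalisation the range of Yy1 over all 15 samples was 0.54 on the log2 scale. It averaged 15.49 ± 0.07 at 1 month (SD, n = 4), 15.36 ± 0.27 at 3 months, 15.42 ± 0.15 at 6 months, 15.54 ± 0.16 at 12 months (SD, n = 3 each) and 15.39 ± 0.002 at 24 months (SD, n = 2). The order of ages from the highest was 12, 1, 6, 24 and 3 months, and neighbours differed by less than the SD of the wider of the pair. The 4 samples at 1 month lay between 15.42 and 15.60. Both 24-month samples, at 15.385 and 15.388, lay below every 1-month sample. How many of the genes tested did so on the normalised scale was not counted. On the pixel scale both 24-month samples also lay below every 1-month sample, as they did for 28.9% of the 38 genes tested. The differences from 1 month ran from -0.13 ± 0.12 (SE) at 3 months to 0.05 ± 0.12 at 12 months, and the one at 24 months was -0.10 ± 0.14. None passed the test (limma, adjusted p from 0.636 to 0.995). The 95% interval at 24 months ran from -0.40 to 0.20, and the slope was -0.004 ± 0.025 per doubling of age (limma, adjusted p = 0.970). Yy1 gave an adjusted p of 0.849 in the F-test over ages (limma).

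The 2 spots of Yy1 were not alike. The second was the brighter on 17 of 18 arrays, by 0.19 ± 0.21 on the log2 scale (SD, n = 18 arrays), while the second over the first spot of Hmgb2 gave 0.13 and of Ncl -0.04. Among 51 genes with 2 spots the median was -0.008 and Yy1 had rank 7 from the highest. For 2 of these genes the second spot was the brighter on all 18 arrays. The second Yy1 spot was marked as bleeding by the authors on 10 arrays and the first on 0. It lies next to a spot of the housekeeping gene Gapdh that was marked so on all 18 arrays, and no such spot adjoins the first. The local background averaged 34061 beside the second spot and 18980 beside the first. A blank that likewise adjoins 1 such Gapdh spot averaged 14156, the blanks that adjoin 2 averaged 25682 and 28426, against 6583 for the blank that adjoins none. The part of the neighbouring spot in the Yy1 values was not tested; with the first spots of all genes alone the slope of Yy1 was -0.016 per doubling of age.

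**Figure D3:**
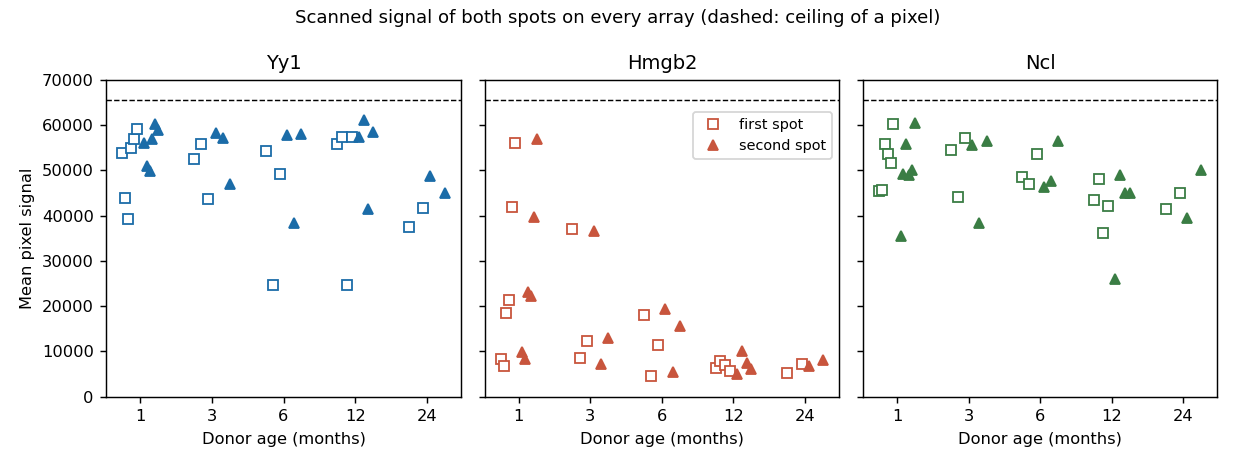
Mean pixel signal (y axis) of the first spot (open squares) and the second spot (filled triangles) of Yy1, Hmgb2 and Ncl on each of the 18 arrays, by donor age in months (x axis). The dashed line is the ceiling of a pixel, 65535. Yy1 and Ncl lie mostly in the upper part of the scale, and Hmgb2 is spread from 4562 to 57001.

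Ncl was also called present at both spots on every array. Its signal at 1 month was 67.0% of the ceiling in sample 1, 85.1% in sample 2, 78.4% in sample 5 and 84.8% in sample 8. At 3 months it was 84.1% in sample 2, 62.8% in sample 5 and 86.8% in sample 8, and at 6 months 72.3% in sample 6, 72.1% in sample 7 and 84.0% in sample 8. High and low samples stood side by side at these 3 ages. At 12 months it was 63.6% in sample 2, 61.8% in sample 3 and 66.4% in sample 7, and at 24 months 61.8% in sample 1 and 72.6% in sample 2.

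On the normalised scale Ncl averaged 15.34 ± 0.25 at 1 month (SD, n = 4), 15.31 ± 0.32 at 3 months, 15.43 ± 0.17 at 6 months, 15.21 ± 0.29 at 12 months (SD, n = 3 each) and 15.46 ± 0.15 at 24 months (SD, n = 2). The order from the highest was 24, 6, 1, 3 and 12 months, again with no neighbours further apart than their SD. The differences from 1 month were -0.04 ± 0.19 (SE) at 3 months, 0.08 ± 0.19 at 6 months, -0.13 ± 0.19 at 12 months and 0.11 ± 0.21 at 24 months. No difference passed the test (limma, adjusted p from 0.884 to 0.995), nor did the slope of 0.004 ± 0.038 (limma, adjusted p = 0.970) or the F-test over ages (limma, adjusted p = 0.974). The direction at 24 months depended on the scaling: scaled to the housekeeping genes, Ncl differed from 1 month by -0.23 and by -0.34 at 12 months, neither past the threshold (limma, adjusted p = 0.530 and 0.618).

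Ncl was the member that differed between the sets of arrays. With age in the fit, it was higher by 0.59 ± 0.15 (SE, log2) in the second set than in the first (limma, adjusted p = 0.011). The set was called for 23.7% of the 38 genes, or 9. Hmgb2 differed between the sets by 1.34 ± 0.81 and Yy1 by -0.12 ± 0.09, and neither passed the test (limma, adjusted p = 0.315 and 0.448). In 1-month samples 1 and 8, whose arrays lay in different sets, Ncl was higher on the second array by 0.75 and 0.68. These arrays are part of the same fit, so they are no separate support for the difference between the sets. Ncl was also higher on the second array by 0.64 in 12-month sample 2, both arrays of which lay in the first set. Within the first set the difference at 3 months was 0.32 and at 6 months 0.43, and within the second set the difference at 24 months was -0.17, none past the threshold (limma, adjusted p = 0.993, 0.251 and 0.816).

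**Figure D4:**
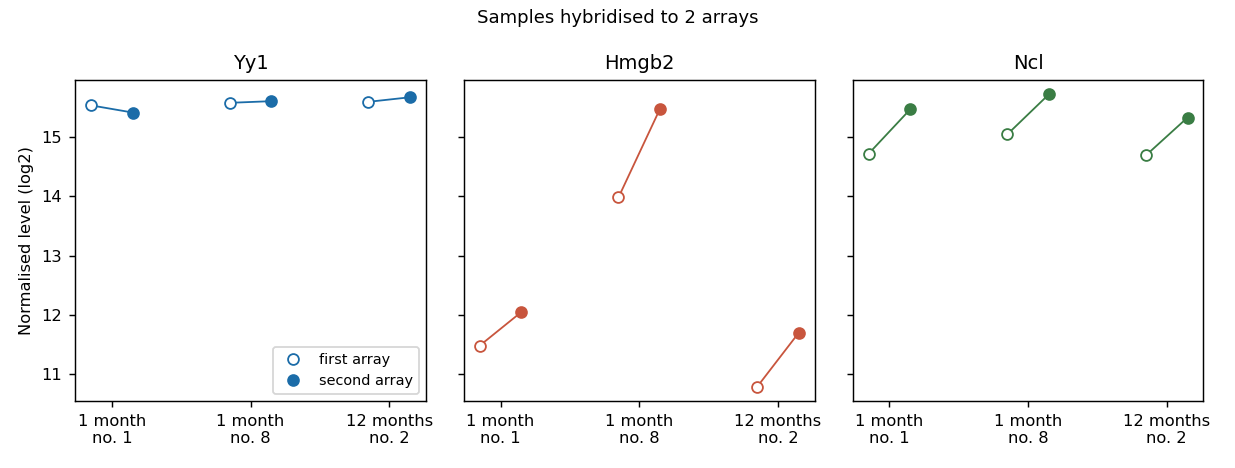
Normalised log2 level (y axis) of Yy1, Hmgb2 and Ncl in the 3 samples hybridised to 2 arrays (x axis), open points for the first and filled points for the second array. Ncl and Hmgb2 were higher on the second array in all 3 samples, and Yy1 moved by at most 0.12.

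The spread of Yy1 between samples of one age was 2.68 times its spread between 2 arrays of one sample, while that of Ncl was 0.52 times. The SD within an age was 0.16 for Yy1 and 0.25 for Ncl, and the SD between arrays 0.06 and 0.49. For Ncl the differences between samples were thus smaller than those between 2 arrays of the same RNA. The SD between arrays rests on 3 samples. The arrays of 1-month samples 1 and 8 lay in different sets, so this SD takes in the difference between sets. The median ratio over the genes tested was 0.92.

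Whether the 3 transcripts moved together across samples was examined in 3 pairs, adjusted over the 3. On the quantile-normalised values Ncl and Yy1 were inversely related over 15 samples, with Pearson's r = -0.69 (permutation p = 0.00461, adjusted p = 0.0138) and Spearman's rho = -0.65 (permutation p = 0.0105, adjusted p = 0.0314). Without the 2 samples farthest from the median of Ncl, r was -0.54. The sign rested on the scaling. Scaled to the housekeeping genes, r was 0.15 (permutation, adjusted p = 0.600), and with arrays centred on their medians it was 0.90 (permutation, adjusted p = 3e-05, where the unadjusted p is the smallest that 100000 permutations can give). Within the first set r was -0.74 over 11 samples (permutation p = 0.00843), and within the second 0.64 over 6 samples (exact permutation p = 0.188).

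**Figure D5:**
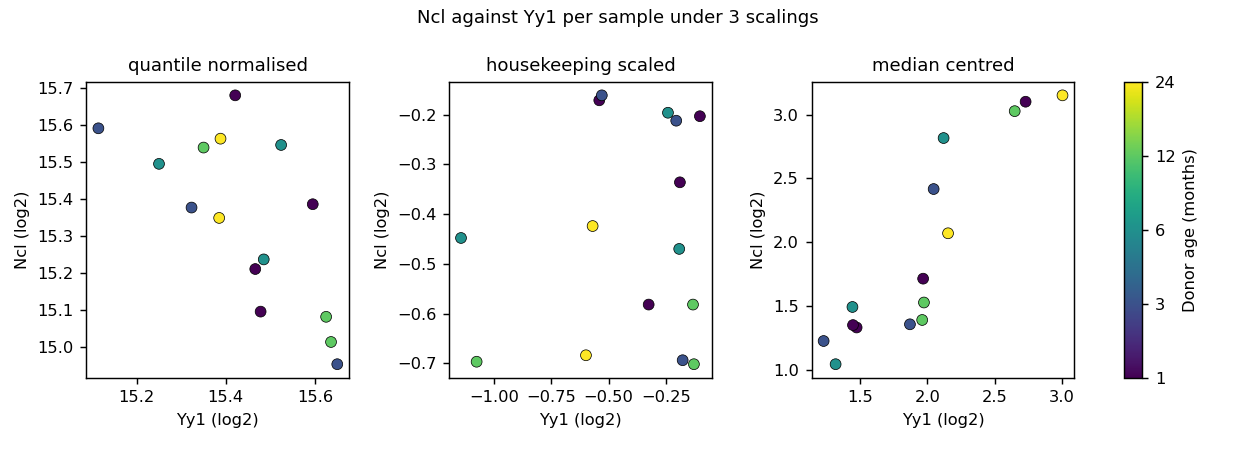
Ncl (y axis, log2) against Yy1 (x axis, log2) in 15 samples, coloured by donor age, after quantile normalisation, scaling to the housekeeping genes and centring on the median of each array. The relation is inverse in the first panel (r = -0.69), weak in the second (r = 0.15) and direct in the third (r = 0.90).

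Hmgb2 and Ncl gave r = 0.46 over 15 samples (permutation p = 0.0822, adjusted p = 0.123) and rho = 0.49 (permutation p = 0.0667, adjusted p = 0.1001). Without the 2 samples farthest from the median of Hmgb2, r was 0.69. Without 6-month sample 7, r was 0.63 (permutation, adjusted p = 0.0258). Scaled to the housekeeping genes r was 0.74 (permutation, adjusted p = 0.00534), and centred on the median it was 0.15. Within the first set r was 0.22 over 11 samples (permutation p = 0.518), and within the second 0.96 over 6 samples (exact permutation p = 0.00556). Hmgb2 and Yy1 gave r = -0.13 (permutation p = 0.648, adjusted p = 0.648) and rho = -0.23 (permutation p = 0.406, adjusted p = 0.406). Without the 2 samples farthest from the median of Hmgb2, that r was -0.58. It was -0.21 within the first set (permutation p = 0.534), 0.74 within the second (exact permutation p = 0.0722) and 0.47 scaled to the housekeeping genes (permutation, adjusted p = 0.122).

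Among the other genes tested, those whose levels over the 15 samples were most like a member's are given as a description, since all values share the arrays and their normalisation. For Yy1 these were the histone deacetylase Hdac2 (r = 0.82), the retinoblastoma gene Rb1 (r = 0.69) and the Polycomb ring finger gene Bmi1 (r = 0.54). For Hmgb2 they were Suz12, a core subunit of Polycomb repressive complex PRC2 (r = 0.81), the methyl-lysine reader L3mbtl2 (r = 0.50) and Ncl. For Ncl they were the housekeeping gene Ppia (r = 0.64), Hmgb2 and the chromatin remodeller subunit Smarcc1 (r = 0.40), which was detected in 2 samples only. The range of Ppia over the 15 samples was 0.009 on the log2 scale, near the pixel ceiling, and its r with Ncl was 0.39 scaled to the housekeeping genes and 0.94 centred on the median. Scaled to the housekeeping genes, r was 0.87 between Yy1 and Hdac2 and 0.83 between Hmgb2 and Suz12, and centred on the median 0.93 and 0.71. The scaled values in this paragraph come from pixel signals without background correction, unlike those for the pairs of members. Centring on the median also gave 0.94 for Ncl and Ppia, so a high r there is no check on the likeness. The likeness of Yy1 and Rb1 did not keep its sign, at -0.18 centred on the median.

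Of 24 genes whose products are known to bind Yy1 or to act in complexes with it, 13 were on the array and 9 were tested. None of the 9 passed the adjusted test in any comparison, in either direction. In the slope over log2 age 8 of 9 were negative, with a median of -0.15, while 16 of the 38 genes tested were negative and their median was 0.0. Here and below the 38 genes take in the 9 partners themselves. They also take in the housekeeping genes, whose slopes lay between -0.001 and 0.002. At 24 months against 1 month 8 of 9 were lower, with a median of -0.63, against 19 of 38 and a median of -0.001 over all. At 3 months 4 of 9 were lower and 5 higher, with a median of 0.22, against 22 of 38 lower over all. At 6 and 12 months 7 of 9 were lower, with medians of -0.14 and -0.36, against 19 and 17 of 38. The samples of 24 months lay in the second set of arrays only, and these counts make no allowance for the set.

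The partners with an unadjusted p under 0.05 are named here beside the number of all 38 genes with such a p, which was 5 at 3 months, 6 at 6 months, 2 at 12 months, 6 at 24 months, 4 in the slope and 13 in the F-test. The histone chaperone gene Rbbp4 averaged 12.22 ± 0.20 at 6 months (SD, n = 3) against 13.12 ± 0.40 at 1 month (SD, n = 4), a difference of -0.90 ± 0.28 (SE; limma, adjusted p = 0.083), and its difference at 12 months was -0.82 ± 0.28 (limma, adjusted p = 0.489). Rbbp4 was detected in 3 of 4 samples at 1 month, 2 of 3 at 6 months and 1 of 3 at 12 months. Its relative Rbbp7 had 14.08 ± 0.81 at 6 months against 15.14 ± 0.43 at 1 month (limma, adjusted p = 0.086). The deacetylase gene Sirt1 had 14.80 ± 0.36 at 3 months against 13.97 ± 0.54 at 1 month, and Eed, a subunit of PRC2, 15.26 ± 0.16 against 15.49 ± 0.17 (limma, adjusted p = 0.327 for both).

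L3mbtl2 had 12.63 ± 0.18 at 24 months (SD, n = 2) against 13.55 ± 0.59 at 1 month (SD, n = 4; limma, adjusted p = 0.285). The slopes of Rbbp4, L3mbtl2 and Suz12 were -0.22 ± 0.08, -0.20 ± 0.08 and -0.20 ± 0.09 per doubling of age (SE; limma, adjusted p = 0.415 for each). These were 3 of the 4 genes with an unadjusted p under 0.05 in the slope. In the F-test over ages Eed, L3mbtl2, Rbbp4, Rbbp7 and Sirt1 had an unadjusted p under 0.05 and adjusted p from 0.067 to 0.137 (limma), 5 of 9 partners against 13 of 38 genes. The other members of the list that were tested, Ezh1, Hdac2 and Rnf2, had none under 0.05. Of 6 further genes of HMG-box proteins and 7 of nucleolar proteins none was on the array, and of 13 genes of cell division 1 was, E2f6, which was not tested.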

How the data were processed

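Per the labels' protocols, biotin was added to the RNA during linear amplification, before hybridisation to a 1-colour oligonucleotide array with 128 spots, 117 of them for 64 genes. In the raw sheet as deposited, values are spot intensity, the signal summed over the pixels of a spot, with a local background beside each, per the file headers. Further sheets hold the authors' present and bleeding marks. All 2304 intensities used are whole multiples of 257. The authors' deposited ratio table, which covers 49 genes, sets the signal of a gene against the housekeeping spots, per the file headers. It was checked against the raw sheet, and its largest difference from the recomputed ratio is 0.007. Of the 23 arrays in the sheets, 5 were not used here. The scanner was not given in the sources used here.

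Intensity was divided by spot area, corrected with normexp (offset 50) on the spot signal alone, quantile normalised in limma 3.58.1 (R 4.3.3), and averaged, first over a gene's spots and then over a sample's arrays. The local background column was left out because it follows the spots, a choice made with earlier results known. Detection in a sample means that 50% or more of the gene's spots had a present mark there. This was so in 2 or more of the 15 samples for 38 genes, all 3 members among them, which were tested with lmFit and eBayes (5 ages, 10 residual degrees of freedom). Benjamini-Hochberg adjustment ran over the 38 genes, with a threshold of 0.05. Correlations used 100000 permutations, or all permutations for 6 samples. The fit and the permutation test were tested on simulated data. The number of arrays limits the precision. Replicate numbers did not pair samples across ages: 12 pairs of samples with the same number correlated from -0.42 to 0.40.

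The members and lists were chosen with earlier results of these data known. Genes named are the members, the 3 tested genes most like each, and those of a list of Yy1 partners with an unadjusted p under 0.05 in a comparison. Alternatives were other scalings, background corrections, filters, spots and arrays, array weights, the set of arrays, the replicate number as a block and leaving out each sample. The alternative without spots under 95 pixels and the correlation within the second set were chosen after seeing the data.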

Additional observations from a re-analysis of the deposited data

Results flagged for a closer look

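The blank spots at positions 53 and 55, which no comparison uses, carried signal above both plasmid control spots on all 18 arrays. Their mean pixel signal was 25682.0 and 28426.2, against 6026.5 and 6225.3 for the plasmid control, and none was called present. Each adjoins 2 Gapdh spots marked as bleeding on every array, and the second Yy1 spot adjoins 1.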

How the results depend on the processing

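No member passed the threshold in any comparison of ages under any alternative run. The slope of Hmgb2 per doubling of age was negative under 17 of 17 alternative settings, from -0.75 to -0.24, at -0.063 per month of age, and with each sample left out, from -0.52 to -0.31, with a lowest adjusted p of 0.0999. Its differences at 6, 12 and 24 months were negative under every alternative run, but their size moved: from -2.97 (replicate block) to -0.89 (the authors' ratio) at 6 months, from -2.72 (replicate block) to -0.92 (local background) at 12 months, and from -4.28 (not divided by area) to -0.99 (no background correction) at 24 months. That at 3 months ran from -1.26 (replicate block) to -0.07 (set as a term), and from -1.54 to 0.003 with samples left out. All these runs reuse the same samples or part of them, and Hmgb2 was detected only in samples of 1 to 6 months. A constant sign over the runs is therefore no separate support for a fall with age. Hmgb2 gave no value under the stricter filter, which it did not pass, and the first set gave none at 24 months nor the second at 3 and 6 months, for lack of samples. Yy1 and Ncl, whose values lie near 0, changed sign as follows, and the cause was not tested. With housekeeping scaling and the authors' ratio, Ncl had a slope of -0.067 under both, -0.049 and -0.056 at 6 months and -0.231 and -0.246 at 24 months, Yy1 had -0.155 and -0.137 at 12 months, and Yy1 had 0.008 at 3 months with the ratio. With median centring, the slope of Yy1 was 0.118 and its difference at 24 months 0.673, and Ncl had -0.09 at 6 and 0.107 at 12 months. With the local background in normexp, Yy1 had a slope of 0.028 and 0.091, 0.056 and 0.172 at 3, 6 and 24 months, and Ncl a slope of -0.003 and 0.001 at 3 months. Within the first set, Yy1 had a slope of 0.012, and Ncl 0.315 at 3 and 0.055 at 12 months. Within the second, Ncl had a slope of -0.035 and -0.17 at 24 months, and Yy1 -0.133 at 12 months. With the set as a term, Ncl had a slope of -0.008, 0.292 at 3 and -0.151 at 24 months. With the replicate number as a block, Yy1 had a slope of 0.007 and 0.013 at 6 months, and Ncl a slope of -0.013 and -0.027 at 6 months; the block changed no call of a member. The slope of Ncl was -0.015 on first spots, that of Yy1 0.007 on second spots, and Ncl at 3 months was 0.143 on first arrays and 0.002 with all arrays and the sample as a random block. With samples left out, the slopes of Yy1 ran from -0.013 to 0.005 and of Ncl from -0.013 to 0.028, Ncl at 3 months from -0.177 to 0.141, and Yy1 from -0.122 to 0.014 at 6 and from -0.002 to 0.141 at 12 months.

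Over all genes, the F-test called 0, but 1 with median centring, second spots or within the second set, 2 within the first set and 9 with array weights. At 6 months 1 gene was called, but 0 with housekeeping scaling, median centring, the ratio, no division by area, no filter, the random block, the set as a term, the replicate block or first spots, 2 without background correction or on first arrays and 3 within the first set or on second spots. At 12 months 0 were called, but 1 within either set. With samples left out, the counts ran from 0 to 2 in the F-test and at 6 months.

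The correlation of Ncl and Yy1 was 0.146 with housekeeping scaling, 0.223 with the ratio, 0.899 with median centring and 0.641 within the second set. That of Hmgb2 and Yy1 was 0.468, 0.503 and, within the second set, 0.74. That of Hmgb2 and Ncl passed the threshold at 0.744 with housekeeping scaling, 0.729 with the ratio, 0.638 after the mean of each age was taken off and 0.958 within the second set, and ran from 0.351 to 0.63 with samples left out. Signals near the pixel ceiling limit what can be seen for Yy1 and Ncl, and signals called absent limit it for Hmgb2.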
